A study of Mus musculus with 27 samples.

Results

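RNA of 10 heat shock protein genes was followed in CT26 tumors, with members chosen by name and not by a threshold on their values: Hspa1a, Hspa1b, Hspa8, Hsph1, Hspb1, Hsp90aa1, Dnajb1, Hspd1, Hspe1 and Bag3. Earlier results of these data were known when these members were chosen. All 10 were found among the 54752 genes of the deposited count tables. CT26 is a mouse colon carcinoma line, grown here under the skin of BALB/c mice, and the series compared tumors under anti-PD-1 therapy that differed in the guide RNA given to the cancer cells. The groups were Mettl3 KO tumors, Mettl14 KO tumors and control tumors that received a control guide, with 5 RNA-seq libraries in each, and all 3 groups had been retrovirally transduced. Mettl3 and Mettl14 encode the core of the enzyme that writes N6-methyladenosine on RNA. The protocol gives antibody injections of 200 µg (10 mg/kg) from day 11 to day 23 and names more than one antibody, and the age of the mice is not given in the sources used here. Knockout was made in the injected cells, so vessels, immune cells and stroma of the host keep both genes, and in such bulk samples fewer cancer cells and less RNA per cell cannot be told apart. The other 12 of the 27 samples are m6A immunoprecipitations and their inputs, which were not analysed here.

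Heat shock proteins are chaperones that keep other proteins folded. Hsp70 proteins bind unfolded stretches with the help of J-domain partners and are reset by nucleotide exchange factors, Hsp90 matures kinases and receptors, and a barrel of Hsp60 capped by Hsp10 folds proteins inside mitochondria. Under heat or other damage, heat shock factor 1 binds heat shock elements, alternating repeats of GAA and TTC, and turns on the inducible members. In cancer cells several of these genes are known for high constitutive expression.

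Promoter sequences are shown for the near-identical Hsp70 pair, for Hsph1 and for the divergent pair Hspe1 and Hspd1, whose levels are described further on. RefSeq windows of 300 bases on GRCm38.p6, from 250 bases before a transcription start to 50 after it, were at hand for 8 of the 10 members in 11 windows. The first 3 lines give the 250 bases before the start, and the fourth a stretch of the divergent promoter of Hspe1 and Hspd1; capitals mark the 2-unit elements, or in the fourth line a 3-unit element.
Hspa1a, chr17:34972157-34972406, minus strand: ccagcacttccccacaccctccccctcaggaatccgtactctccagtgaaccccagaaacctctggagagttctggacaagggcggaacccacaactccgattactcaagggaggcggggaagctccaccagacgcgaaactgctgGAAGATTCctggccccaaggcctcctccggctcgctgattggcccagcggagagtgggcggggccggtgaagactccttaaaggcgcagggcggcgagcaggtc
Hspa1b, chr17:34959239-34959488, minus strand: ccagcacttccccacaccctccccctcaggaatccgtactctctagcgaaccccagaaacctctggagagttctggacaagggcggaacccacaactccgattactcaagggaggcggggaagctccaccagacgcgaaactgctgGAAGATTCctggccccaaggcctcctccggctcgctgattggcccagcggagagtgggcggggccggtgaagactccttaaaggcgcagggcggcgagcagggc
Hsph1, chr5:149636337-149636586, minus strand: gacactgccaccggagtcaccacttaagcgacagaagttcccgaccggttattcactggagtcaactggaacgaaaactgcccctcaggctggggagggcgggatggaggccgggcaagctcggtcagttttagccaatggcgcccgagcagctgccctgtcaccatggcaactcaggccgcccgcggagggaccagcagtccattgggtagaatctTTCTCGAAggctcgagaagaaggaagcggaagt
Hspe1, chr1:55088051-55088079, plus strand: acggtccgTTCTAGAACCTTCcggaaggc
The Hspa1a and Hspa1b windows differed at 4 of 300 bases, 3 of them before the start, and each held 1 element whose first base lies 104 bases before the start. The 2-unit element (GAANNTTC or TTCNNGAA, where matches may overlap and each pattern reads the same on both strands) was present in the windows of 7 of the 8 members, Bag3, Hspa1a, Hspa1b, Hspb1, Hspd1, Hspe1 and Hsph1, against 17.0% of the 27025 genes in the table. The element of 3 alternating units with 2-base gaps occurred in Hspd1, Hspe1 and Hsph1, against 0.662% of genes; in Hspe1 they begin 89 and 84 bases before the start, and Hsph1 has 1, which lies after both of its annotated starts. Dnajb1 had no match in either of its windows, and Hspd1 had matches in only 1 of its 2 windows. CCAAT was found on either strand in 5 members and in 41.1% of genes, and TATAAA in 0 members and in 15.7% of genes. A match describes letters only and does not show that a factor was bound.

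The libraries held 4.35 to 9.33 M gene-assigned reads in Mettl3 KO, 6.45 to 17.0 M in Mettl14 KO and 5.52 to 21.0 M in control tumors. Uniquely aligned reads that fell outside genes made up 60.2 to 78.0% in Mettl3 KO (median 69.2%), 53.6 to 65.9% in Mettl14 KO (median 55.5%) and 44.3 to 78.6% in control tumors (median 52.4%), with control replicate 1 and Mettl3 KO replicate 4 at the top. Neither targeted gene had an edgeR adjusted p under 0.05 in its own knockout. Mettl3 RNA averaged 13.8 ± 1.45 CPM (gene counts scaled to library size) in Mettl3 KO tumors, against 19.5 ± 3.59 CPM in controls (SD, n = 5 each). Its log2 fold change was -0.56 (SE 0.15), with an edgeR adjusted p of 0.0545. Mettl14 RNA averaged 61.6 ± 12.4 CPM in Mettl14 KO tumors against 69.5 ± 11.7 CPM in controls. The log2 fold change of Mettl14 was -0.21 (SE 0.17), with an edgeR adjusted p of 0.735. A guide-made frameshift need not remove the RNA, so these levels do not test the labels. The 7 carcinoma and epithelial markers, none at 0 in all libraries, summed to 56.0 to 116 CPM in Mettl3 KO, 80.03 to 171 CPM in Mettl14 KO and 185 to 245 CPM in control tumors. Krt20 alone made up most of the sums in control tumors, at 157 to 214 CPM. It averaged 57.7 ± 27.3 CPM in Mettl3 KO tumors against 187 ± 23.7 CPM in controls (edgeR adjusted p 0.0217). Krt20 was the 1 of 5 tested markers that passed, so the sums do not describe the other markers. Krt18 averaged 8.004 ± 3.05 CPM in Mettl3 KO tumors against 14.2 ± 5.35 CPM in controls. Krt8, near the floor, averaged 2.88 ± 1.38 CPM in Mettl3 KO tumors against 1.65 ± 1.39 CPM in controls. Of the 5 tested markers 2 were below 0 on the log2 scale, and their median log2 fold change was 0.11.

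Per kilobase of exon, the constitutive and mitochondrial chaperones led and the strictly inducible ones were near the floor. Over the 15 libraries Hspd1, the mitochondrial Hsp60, averaged 200.4 ± 56.5 reads scaled to exon length and library size (RPKM), and Hspa8, the constitutive Hsp70, 185 ± 56.8 RPKM. Hsp90aa1, the stress-responsive cytosolic Hsp90, followed at 104 ± 35.0 RPKM and Hspe1, the mitochondrial Hsp10, at 61.7 ± 14.9 RPKM. Hsph1, an Hsp110 nucleotide exchange factor, averaged 24.8 ± 10.4 RPKM, Dnajb1, the J-domain partner of stress Hsp70, 18.2 ± 4.95 RPKM, and Bag3, an exchange factor tied to selective autophagy, 9.60 ± 1.74 RPKM. Hspa1b and Hspa1a, the inducible Hsp70 pair, averaged 2.21 ± 0.885 and 0.359 ± 0.196 RPKM, and Hspb1, a small heat shock protein, 1.10 ± 0.436 RPKM. Mean ± SD overlapped between neighbours from Hspd1 down to Hspe1, between Hsph1 and Dnajb1 and between Hspa1b and Hspb1, and did not overlap at the other steps. Hspa1a had at most 22 reads in a library and Hspa1b 14 to 125, and the reads of this pair cannot be fully told apart, as described at the end.

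**Figure D1:**
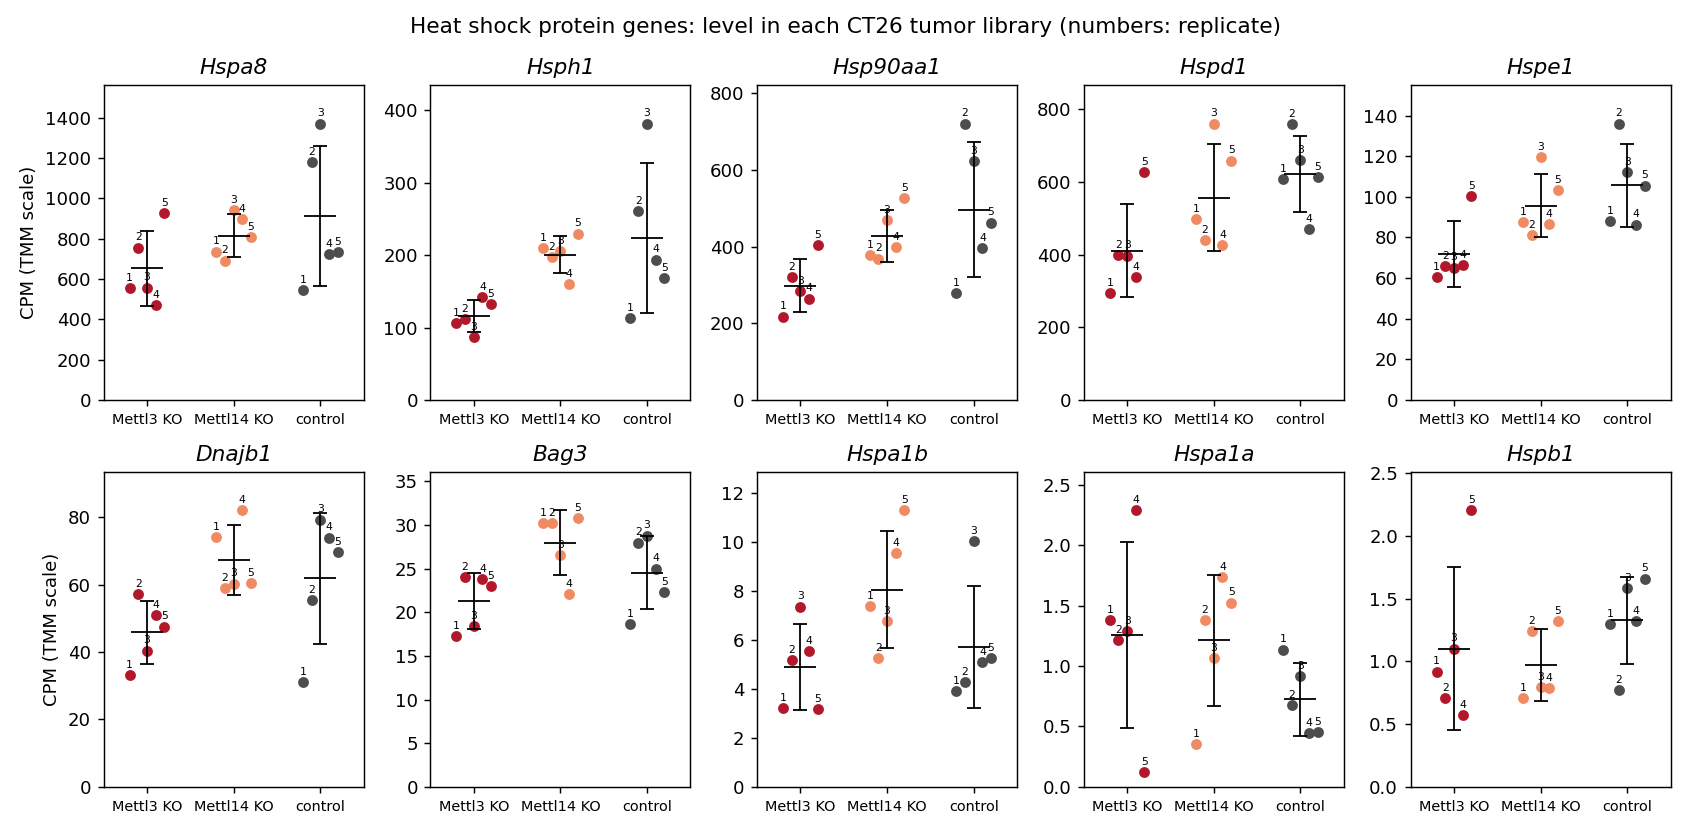
Each panel plots 1 gene, with CPM on the TMM scale on the vertical axis from 0 and the Mettl3 KO, Mettl14 KO and control libraries from left to right; points are libraries labelled by replicate, and the bar and whiskers give the mean and SD (n = 5). Hsph1 in Mettl3 KO tumors sat between 86.7 and 142 CPM, below every Mettl14 KO library, whereas control libraries spread from 113 to 382 CPM.

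The series set out to find genes whose RNA differs in Mettl3 KO tumors from control, and the chaperones are read from that comparison here. All 9 members that could be tested had lower fitted levels in Mettl3 KO tumors, with log2 fold changes from -1.0 to -0.26, but 0 of 9 passed edgeR's quasi-likelihood test at an adjusted p of 0.05 over all genes. In that fit 266 of 21427 genes passed, or 1.24% (87 higher and 179 lower in Mettl3 KO). The split depended on the scaling, with 72 higher and 28 lower under RLE scaling and 106 higher and 16 lower under library totals. At an unadjusted p under 0.05 there were 4 members, Hsph1, Hsp90aa1, Hspd1 and Hspe1, and 6918 genes (32.3%). The median of the 9 members was -0.54 and that of all genes tested was -0.14, with 55.1% of all genes below 0. Library totals moved the median of all genes by 0.16, to 0.02, and that of the members to -0.33, with all 9 still below 0. The sizes rested on single libraries: leaving out 1 library in turn gave -1.03 to -0.61 for Hsph1 and -0.64 to -0.23 for Hspa8 (both weakest without control replicate 3), and -0.63 to -0.23 for Dnajb1 and -0.34 to -0.04 for Bag3 (both weakest without Mettl3 KO replicate 1). Hspa1a was below the count filter.

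Among the cytosolic Hsp70 machinery, Hsph1 had the largest difference. It had 106, 111, 86.7, 142 and 132 CPM in Mettl3 KO tumors, against 113, 261, 382, 194 and 168 CPM in control tumors. The groups overlapped only through control replicate 1, which was lower than 2 of the Mettl3 KO libraries. The log2 fold change was -1.0 (SE 0.29), with an edgeR adjusted p of 0.0584. Hspa8 had 557, 756, 558, 472 and 929 CPM in Mettl3 KO tumors, against 545, 1181, 1371, 724 and 735 CPM in control tumors. Its ranges overlapped widely, and the log2 fold change of -0.54 (SE 0.26) had an edgeR adjusted p of 0.170. Dnajb1 had 33.1, 57.2, 40.4, 50.9 and 47.5 CPM in Mettl3 KO tumors, against 31.0, 55.5, 79.3, 73.9 and 69.6 CPM in control tumors. Here too control replicate 1 was the lowest of its group, and the log2 fold change was -0.50 (SE 0.24; edgeR adjusted p 0.165). Bag3 ran from 17.2 to 24.0 CPM in Mettl3 KO tumors, against 18.7 to 28.8 CPM in controls, with a log2 fold change of -0.26 (edgeR adjusted p 0.238).

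Hsp90aa1 had 218, 321, 285, 265 and 404 CPM in Mettl3 KO tumors, against 280.0, 721, 624, 396 and 463 CPM in control tumors. All Mettl3 KO libraries except replicate 5 lay below the 4 control libraries other than replicate 1; the log2 fold change was -0.79 (SE 0.24; edgeR adjusted p 0.0629). The mitochondrial partners behaved alike. Hspd1 had 294, 399, 397, 338 and 626 CPM in Mettl3 KO tumors, against 607, 759, 660.2, 469.8 and 612 CPM in control tumors. Every Mettl3 KO library except replicate 5 was under all control libraries, and the log2 fold change of Hspd1 was -0.67 ± 0.21 (SE; edgeR adjusted p 0.0659). Hspe1 had 60.4, 66.0, 65.2, 66.5 and 100.5 CPM in Mettl3 KO tumors, against 87.9, 136, 112, 86.4 and 105 CPM in control tumors. The same 4 libraries were under every control library, and the log2 fold change was -0.61 (SE 0.17; edgeR adjusted p 0.0565). Mettl3 KO replicate 5 also had the highest summed level of 11 skeletal muscle markers, 880.3 CPM, where the Mettl3 KO libraries ranged from 50.8 CPM upward and control libraries from 47.5 to 356 CPM. It had the lowest share of reads outside genes in its group, 60.2%. Among Mettl3 KO libraries it also had the highest sum of each list of partner chaperones described further on. The part of these differences in the mitochondrial values was not tested.

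**Figure D2:**
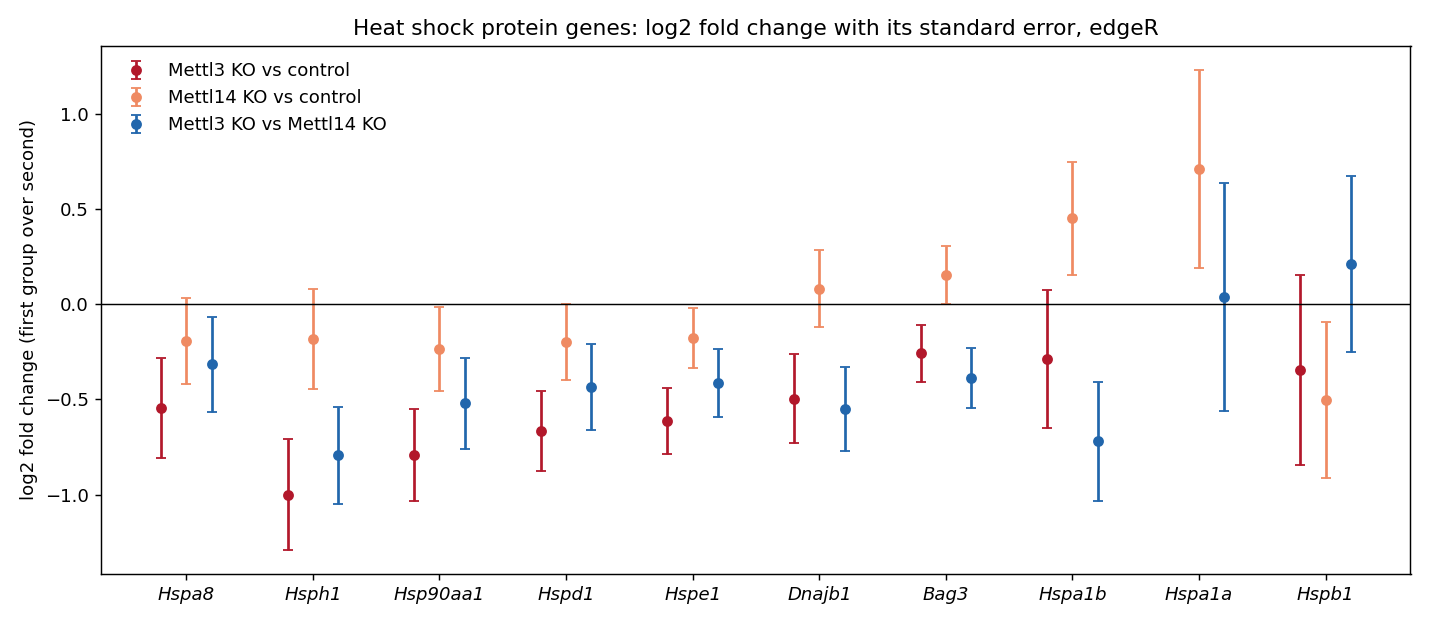
Log2 fold changes (vertical axis) of the 10 genes (horizontal axis) with their standard errors, from edgeR, for Mettl3 KO over control, Mettl14 KO over control and Mettl3 KO over Mettl14 KO. The Mettl3 KO over control points run from -1.0 for Hsph1 to -0.26 for Bag3; Hspa1a has none there because it was below the filter.

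Calls for these members depended on 1 control library and on the tool. Without control replicate 1, edgeR called Hsph1 (adjusted p 0.00570), Hsp90aa1 (0.0119) and Hspe1 (0.0451) lower in Mettl3 KO tumors, in a fit that called 15.4% of all genes lower (3463 of 22535) and 8162 genes higher. DESeq2 on all 10 libraries called Hsph1, Hsp90aa1, Hspd1 and Hspe1 lower, with adjusted p from 0.0183 to 0.0294, where 18.6% of the genes it adjusted were lower. The authors' deposited table called 2 members lower, Hsph1 (log2 fold change -0.82, adjusted p 0.0434) and Hspd1 (-0.55, adjusted p 0.0475), where it called 8.18% of genes lower. With the replicate number as a block, 19.2% of genes were called lower, and without both libraries above 75% of reads outside genes, 8.11%; the members under these settings are given with the processing.

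Genes of like abundance were lower as well. Among the 1792 genes of at least 100 CPM the median log2 fold change in Mettl3 KO was -0.57 (quartiles -0.70 and -0.43), among 8247 genes of 10 to 100 CPM it was -0.43 (quartiles -0.59 and -0.22), and among 11372 genes of 1 to 10 CPM it was 0.67. Hspa8 at -0.54 and Hspd1 at -0.67 lay between the quartiles of their class, and so did Dnajb1 at -0.50 and Bag3 at -0.26 in theirs. Hsph1 at -1.0 and Hsp90aa1 at -0.79 lay under the lower quartile of the most abundant class, and Hspe1 at -0.61 just under that of the middle class. Hspa1b at -0.29 and Hspb1 at -0.35 lay under the lower quartile of the lowest class, -0.03.

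**Figure D3:**
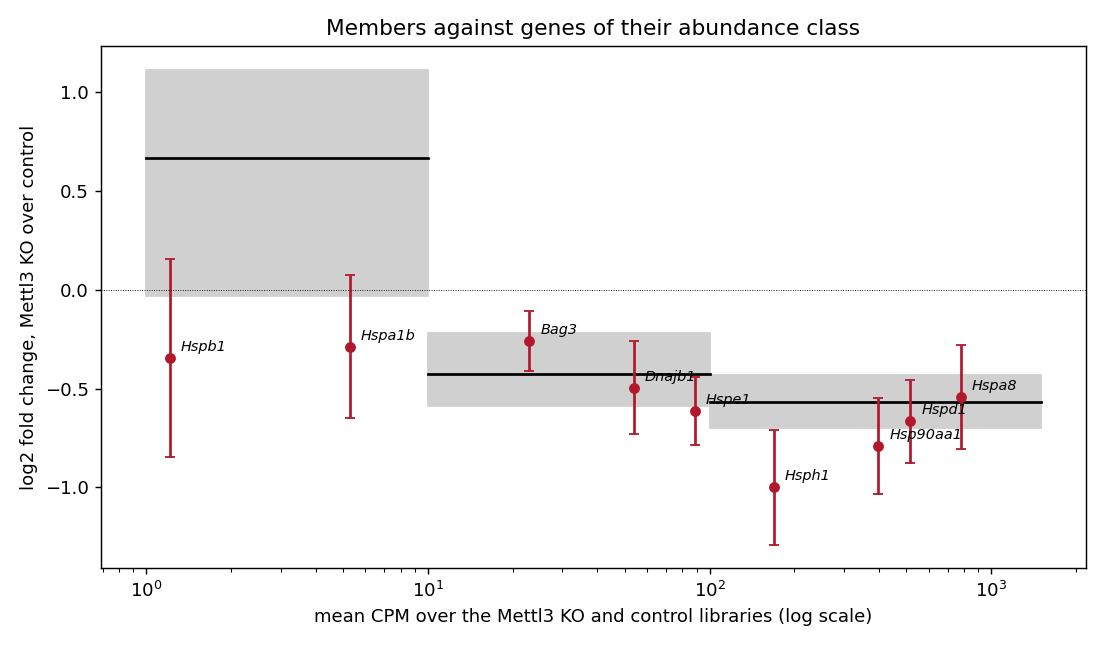
Log2 fold change of Mettl3 KO over control (vertical axis) against mean CPM on a log scale (horizontal axis); red points are the 9 tested members with their standard errors, black lines the median of all genes in classes of 1 to 10, 10 to 100 and at least 100 CPM, and grey boxes their quartiles. Hsph1 has the lowest value of the 9, at -1.0 against a class median of -0.57.

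Members also varied with the share of reads outside genes. Across the 15 libraries, log2(CPM + 1) of 9 of the 10 members correlated negatively with it. For Hspa8 Pearson's r was -0.80 and Spearman's rho -0.75 (permutation p 0.000330 and 0.00175), for Dnajb1 -0.80 and -0.74 (p 0.000340 and 0.00243) and for Hsp90aa1 -0.79 and -0.82 (p 0.000450 and 0.000330). Hsph1 (r = -0.69), Hspe1 (-0.67) and Hspd1 (-0.55) also passed a permutation p adjusted over the 23323 genes of at least 1 CPM. In all, 6 of 10 members did, where 36.0% of all genes passed in the negative direction. All 6 averaged above 10 CPM, where passing in this direction was common. Of the 1878 genes of at least 100 CPM 90.7% passed, with a median r of -0.80. Of the 8199 genes of 10 to 100 CPM 70.0% passed, with a median r of -0.71. Without control replicate 1 and Mettl3 KO replicate 4, the libraries farthest from the median share, r was -0.70 for Hspa8, -0.79 for Dnajb1, -0.75 for Hsp90aa1 and -0.71 for Hsph1. Centred within groups, 3 members passed a permutation p adjusted over the 10 members: Hspa8 at r = -0.74, Dnajb1 at -0.78 and Hsp90aa1 at -0.68. Hsph1 at -0.53 (adjusted p 0.104), Hspe1 at -0.47 (0.123) and Hspd1 at -0.30 (0.326) did not. The centred correlation was not computed over all genes, so this count has no background. It cannot be compared with the 6 of 10 above, which were adjusted over all genes. Without centring, the permutation p adjusted over the 10 members was 0.0103 for Hsph1, 0.0135 for Hspe1 and 0.0521 for Hspd1. Hspa1a alone had a positive r, 0.57 (rho 0.61), from at most 22 reads a library, with a permutation p of 0.0386 adjusted over all genes. In the positive direction 38.3% of all genes passed, and the median r of the 13246 genes of 1 to 10 CPM, the class of Hspa1a, was 0.83. Hspa1b (r = -0.36) and Hspb1 (-0.26), of the same class, were below its lower quartile of 0.24 and did not pass. With the share as a covariate, the fitted log2 fold change in Mettl3 KO against control was -0.12 for Hspa8, against -0.54 without it, -0.06 for Dnajb1, against -0.50, and -0.58 for Hsph1, against -1.0.

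**Figure D4:**
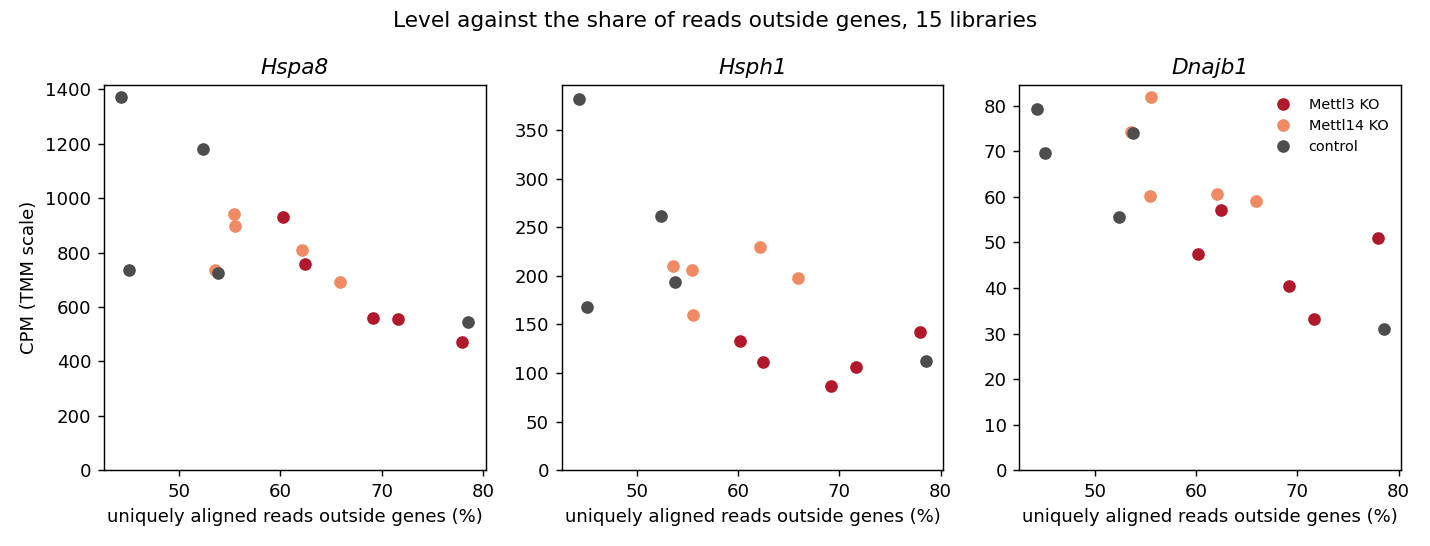
CPM (vertical axis, from 0) of Hspa8, Hsph1 and Dnajb1 against the share of uniquely aligned reads outside genes in percent (horizontal axis) in 15 libraries, coloured by Mettl3 KO, Mettl14 KO and control. Control replicate 1, at 78.6%, is the lowest control library in all 3 panels, and for Dnajb1 it lies at 31.0 CPM, below every Mettl3 KO library.

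In the Mettl14 KO and control comparison, which shares its control libraries with the one above, 0 members passed and their fitted differences lay in both directions. All 10 members were tested with edgeR, and of them 0 passed, as did 0 of 21555 genes (0.00%, smallest adjusted p 0.130). With an unadjusted p under 0.05 there were 0 members and 2444 genes (11.3%), and DESeq2 called 0 members and 505 genes. The members' median log2 fold change was -0.18, and that of all genes -0.09, with 6 of 10 members and 60.8% of all genes below 0. Under library totals these medians were 0.01 and 0.07, and 3 members were below 0, as Hspa8, Hsph1 and Hspe1 turned slightly positive. Hsph1 had 209.8, 198, 206, 159.7 and 229.9 CPM in Mettl14 KO tumors, inside the control range of 113 to 382 CPM, and its log2 fold change was -0.18 ± 0.26 (SE; edgeR adjusted p 0.926). Hspa1b had 7.36, 5.25, 6.77, 9.54 and 11.3 CPM in Mettl14 KO tumors, against 3.89, 4.26, 10.0, 5.08 and 5.24 CPM in control tumors. All Mettl14 KO libraries were above the 4 lower control libraries, and the log2 fold change was 0.45 (SE 0.30; edgeR adjusted p 0.649). Hspa1a, at 6 to 22 reads a library in Mettl14 KO and 7 to 11 in control tumors, stood at 0.71 on the log2 scale (SE 0.52; edgeR adjusted p 0.699). Bag3 (0.15) and Dnajb1 (0.08) lay slightly above 0, and Hspa8, Hsp90aa1, Hspd1 and Hspe1 between -0.24 and -0.18. The lowest value was that of Hspb1, -0.50 (SE 0.41; edgeR adjusted p 0.744), from 6 to 13 reads a library in Mettl14 KO and 8 to 33 in control tumors. Genes of at least 100 CPM had a median of -0.15 there. The authors' deposited table also called 0 members lower there, where it called 0.949% of genes lower.

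Set directly against Mettl14 KO tumors, Mettl3 KO tumors had lower fitted levels of 8 of the 10 members, and 0 passed edgeR, as did 0 of 24566 genes (0.00%). Of all genes 50.7% were below 0, but abundant genes were lower in general, with a median log2 fold change of -0.38 among genes of at least 100 CPM and -0.29 among genes of 10 to 100 CPM. At an unadjusted p under 0.05 there were 6 members and 3152 genes (12.8% of all genes), and DESeq2 called 0 members and 68 genes. Hsph1 was lower in all 5 Mettl3 KO libraries than in every Mettl14 KO library, and its log2 fold change was -0.79 ± 0.26 (SE; edgeR p 0.00650, adjusted p 0.349). Dnajb1 did not overlap either: its highest Mettl3 KO library had 57.2 CPM and its lowest Mettl14 KO library 59.0 CPM, and its log2 fold change was -0.55 ± 0.22 (SE; edgeR adjusted p 0.349). Such separation in this direction occurred in 1.96% of 23323 genes of at least 1 CPM. Hspa1b followed at -0.72 (SE 0.31), Hsp90aa1 at -0.52 (SE 0.24), Hspe1 at -0.41 (SE 0.18) and Bag3 at -0.39 (SE 0.16), all with an edgeR adjusted p of 0.349.

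Ratios within a library compare partners free of scaling between libraries; 5 were tested in the 3 comparisons, added after the data were seen. Hsph1 stood at 18.7 ± 6.60% of Hspa8 in CPM in Mettl3 KO tumors, 25.0 ± 4.96% in Mettl14 KO tumors and 24.1 ± 3.08% in control tumors (SD, n = 5 each). In all, 4 of 5 Mettl3 KO libraries were under every control library and replicate 4 was above them all, and the difference in mean log2 ratio, -0.41, had a two-sided exact permutation p of 0.0873 (adjusted over 15 comparisons, 0.556). Hspa1b was 0.818 ± 0.410% of Hspa8 in Mettl3 KO, 0.986 ± 0.271% in Mettl14 KO and 0.644 ± 0.159% in control tumors. The Mettl14 KO difference from control, 0.62 on the log2 scale, had an exact permutation p of 0.0159 (adjusted 0.238). Hspe1 was 17.8 ± 2.09% of Hspd1 in Mettl3 KO, 17.6 ± 1.97% in Mettl14 KO and 17.0 ± 1.51% in control tumors, the steadiest pair. Hsp90aa1 to Hsp90ab1, its constitutive twin, and Dnajb1 to Dnaja1 gave adjusted p from 0.804 to 0.889. The smallest p this design allows is 0.00794, and 0 of 15 comparisons passed after adjustment. A single ratio at that smallest p could not have passed over 15 comparisons unless others were similarly low.

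Members varied together across libraries to different extents. Over 45 pairs, Hspd1 and Hspe1 had the highest correlation across the 15 libraries, with r = 0.95 and rho = 0.96 (permutation p 1e-05 each, the smallest the permutations can give; adjusted over the 45 pairs, 0.000225 for r), r = 0.93 without the 2 libraries farthest from the Hspd1 median and 0.91 centred within groups. The genes lie head to head on chromosome 1, share 112 exon bases of opposite strands in GENCODE M21 on mm10, and share the element printed above. For Hspd1 that element lies before 1 of its annotated starts and after the other, whose window held no match. Hsp90aa1 and Hspe1 followed at r = 0.91. Among the 7 members above 10 CPM, r ran from 0.27 to 0.95 over 21 pairs, and centred within groups from -0.04 to 0.91. The genes most like the members' mean pattern within groups, among 12603 other genes of at least 5 CPM, were Echdc1 (r = 0.93), Gm6170 (0.93), Nudcd1 (0.92), Gm26448 (0.92) and Gm43719 (0.91), over 15 libraries that share the differences in outside reads given above.

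Lists of partner chaperones had negative medians in Mettl3 KO tumors against control, as the members did, and few of their genes passed in the main edgeR fit. Of 20 Hsp70 and Hsp90 co-chaperones, 2 fell in Mettl3 KO tumors in the fit that called 1.24% of all genes, 179 of them lower. Fkbp5, an Hsp90-bound regulator of steroid receptors, averaged 94.2 ± 40.3 CPM in Mettl3 KO tumors against 229 ± 52.0 CPM in controls (log2 fold change -1.36, SE 0.28; edgeR adjusted p 0.0465), and Bag2, which blocks client ubiquitylation by Chip, 12.0 ± 2.32 CPM in Mettl3 KO tumors against 20.4 ± 4.15 CPM in controls (-0.83, SE 0.17; edgeR adjusted p 0.0463). Of 14 endoplasmic reticulum chaperones 1 fell, Dnajb9, a J-domain partner of BiP, at 16.6 ± 3.07 CPM in Mettl3 KO tumors against 39.7 ± 14.8 CPM in controls (-1.30, SE 0.23; edgeR adjusted p 0.0321). These calls were not kept under every setting: 0 of the 20 co-chaperones passed under RLE scaling or library totals, and Dnajb9 passed under library totals but not under RLE scaling. Leaving out any library other than control replicate 1 also gave 0 calls in both lists, and leaving out control replicate 1 gave 10 co-chaperones and 8 endoplasmic reticulum chaperones lower. DESeq2 called 10 co-chaperones and 7 endoplasmic reticulum chaperones lower, where 18.6% of the genes it adjusted were lower. The replicate block called 15 and 8 lower, where 19.2% of all genes were lower. The medians of these lists were -0.57 each, against -0.14 for all genes, -0.43 for genes of 10 to 100 CPM and -0.57 for genes of at least 100 CPM.

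In the main edgeR fit no gene passed among 14 J-domain proteins (median -0.44), 9 other Hsp70, Hsp110 and Hsp90 genes (-0.45), 12 mitochondrial quality control genes (-0.64), 8 subunits of the TRiC chaperonin (-0.62), 7 heat shock factors and regulators (-0.24) and 6 tested genes listed as small heat shock proteins (-0.26). RLE scaling and library totals also gave 0 calls in these lists. DESeq2 called 4, 1, 7, 3, 0 and 2 of their genes lower, in that order, and the replicate block 6, 4, 10, 8, 2 and 1. Of all genes, DESeq2 called 18.6% of those it adjusted lower, and the replicate block 19.2%. Without control replicate 1, edgeR called 3, 2, 8, 6, 1 and 2 genes of these lists lower, in the same order. It also called 1, 1, 0, 0, 3 and 1 of them higher. That fit called 15.4% of all genes lower, and 8162 of 22535 higher. Within these lists, Dnaja1 and Dnaja2 had an adjusted p of 0.0524 in the main edgeR fit, at log2 fold changes of -0.84 and -0.75. In that main fit the mitochondrial Hsp70 gene Hspa9 had 0.0524 at -0.81, and the matrix protease gene Lonp1 0.0528 at -0.93. Hspa13 (-0.76), Hspa4l (-0.62), Hsf2 (-0.50), Hsbp1 (-0.54), Cct5 (-0.82), Cct6a (-0.62), Hspb11 (-0.95) and the muscle small heat shock protein gene Hspb7 (-1.35) had edgeR adjusted p from 0.0524 to 0.0785. Of 14 immediate early genes, which tissue handling can induce, 0 passed: Atf3 averaged 10.3 ± 4.42 CPM in Mettl3 KO tumors against 3.86 ± 0.645 CPM in controls (edgeR adjusted p 0.0524), and Klf4 58.1 ± 12.7 CPM in Mettl3 KO tumors against 97.4 ± 27.7 CPM in controls (edgeR adjusted p 0.0526). In contrast 11 of 14 interferon-gamma response genes rose in Mettl3 KO tumors in the same fit, with a list median of 1.79; over the alternative settings 5 to 14 passed, the fewest with all 15 libraries in 1 fit.

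In Mettl14 KO against control tumors and in Mettl3 KO against Mettl14 KO tumors, 0 genes passed the main edgeR fits in any of these lists. Over the edgeR alternatives for Mettl14 KO against control, 0 to 11 of 14 interferon-gamma response genes rose, the most without Mettl14 KO replicate 5. Without control replicate 1, edgeR also called Hspa13, Fkbp5 and Cct4 lower and Atf3 higher there. DESeq2 called Fkbp5 lower, Atf3 higher and all 14 interferon-gamma response genes higher in Mettl14 KO against control tumors, and 0 genes of these lists between the knockouts; the interferon-gamma list had a median of 1.89 in the Mettl14 KO comparison, and its 14 genes had an unadjusted edgeR p under 0.05 there. Medians of the chaperone lists ran from -0.19 to -0.05 in the Mettl14 KO comparison, with Fkbp5 at -0.73 (edgeR adjusted p 0.249), Dnajb9 at -0.58 (0.378) and Atf3 at 1.63 (0.130). In the direct comparison, Dnaja1 stood at -0.67, Lonp1 at -0.73, Dnajb9 at -0.70 and Hsf1, the stress-responsive factor, at -0.49, all with an edgeR adjusted p of 0.349. The skeletal muscle markers summed to 50.8 to 880.3 CPM in Mettl3 KO, 12.9 to 51.5 CPM in Mettl14 KO and 47.5 to 356 CPM in control tumors, and T cell markers to 58.3 to 195 CPM in Mettl3 KO, 33.8 to 291 CPM in Mettl14 KO and 13.1 to 50.3 CPM in control tumors; their part in the chaperone values was not tested.

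Low values of some members rest on few distinguishable reads. Of all 75-base windows, the read length, in annotated transcripts, 61.7% of those of Hspa1a and 55.8% of those of Hspa1b also occur in another gene's transcripts, chiefly in each other. The share was 46.4% for Hspb1 (Hsp25-ps1), 42.8% for Hsp90aa1, 33.0% for Hspa8, 31.0% for Hspd1 and 14.6% for Hspe1, with Gm12346, Gm15459, Hspd1-ps3 and AC117239.2 as the genes that share the most windows with these 4, and 0 for Hsph1, Dnajb1 and Bag3. Exons of Hspa1a overlap those of the antisense gene Gm20481 over 19.0% of their bases, and Gm20481 had 0 counts in all 15 libraries. For Hspa1a the authors' deposited tables give a mean normalized count of 78.2 for the Mettl3 KO comparison and 123 for the Mettl14 KO comparison, 9.60 and 11.6 times the means recomputed from the deposited counts. For Hspa1b that factor was 2.41 in both, and for the other 8 members it lay between 0.864 and 1.66; over 20858 genes in the Mettl3 KO table the median was 0.922, and 284 genes were above 5. Levels of Hspa1a and Hspa1b are therefore uncertain in these files. Even at the authors' values, Hspa1a did not pass in either of the authors' deposited tables (adjusted p 0.678 and 0.259).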

How the data were processed

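RNA was measured by single-end 75-base sequencing of RNA from CT26 tumors. Per the submitters' processing notes, reads were handled with cutadapt 1.18, HISAT2 2.1.0 and HTSeq 0.11.2 on mm10, and the deposited files hold raw counts per gene; the authors' deposited tables hold log2 fold changes, mean normalized counts (a signal), test statistics (a score), p-values and adjusted p-values, with DESeq2 among the tools the notes name. Reads that could not be assigned to a gene (56.8 to 86.2% of a library's lines) were left out of library sizes. No source used here states whether counting used strand. The 12 m6A immunoprecipitation and input samples were not analysed here.

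Groups came from the sample titles. Each knockout was compared with control in a fit of 10 libraries, and the knockouts with each other in a fit of all 15, with edgeR 4.0.16 (R 4.3.3): genes passing filterByExpr with a minimum count of 10, TMM scaling, a robust quasi-likelihood test and Benjamini-Hochberg adjustment over all genes, called at 0.05. CPM values are on the TMM scale over 15 libraries; RPKM values use GENCODE M21 exon lengths. DESeq2 1.42.0 was an alternative, as were other scalings and filters, the replicate block, a covariate for reads outside genes and leaving out libraries. The edgeR step was tested on simulated data. Correlations used log2(CPM + 1) and 100000 permutations in Python 3.11.15 with numpy 2.4.6.

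Named genes were all members, the targeted genes, up to 4 called genes of each list (or else the 2 with the smallest p) and the 5 genes most like the members. The members and lists were chosen with earlier results of these data known. The alternative without libraries above 75% of reads outside genes, the ratios (among them Hspa1b to Hspa8, which entered in the course of the work) and the check against the authors' tables were added after the data were seen. Correlations with reads outside genes were planned with adjustment over the 10 members; adjustment over all genes of at least 1 CPM was chosen afterwards, and Hspd1 passes only with it (adjusted p 0.0491, against 0.0521 over the members). Labels do not name the animal behind a library, and the p-values cover only library-to-library spread, which may be technical. No replicate pair agreed within sampling noise; the smallest chi-square per gene was 11.5.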

Additional observations from a re-analysis of the deposited data

Results flagged for a closer look

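Of 45 groups of 5 libraries examined (10 members and 5 ratios in 3 groups), 3 had a library far from the others by Dixon's criterion, where chance gives about 1 in 20. Hspe1 in Mettl3 KO replicate 5 was at 100.5 CPM, with the other 4 libraries between 60.4 and 66.5 CPM. Hspa1b in control replicate 3 was at 10.0 CPM, with the other 4 between 3.89 and 5.24 CPM. The ratio of Hspa1b to Hspa8 in control replicate 2 was 0.361%, the lowest of its group.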

How the results depend on the processing

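Under the 19 alternatives in each comparison with control and the 23 between the knockouts, most fold changes of the members kept their direction and their side of the threshold, while their sizes moved: in Mettl3 KO against control Hsph1 ranged from -1.22 to -0.58, Hsp90aa1 from -0.97 to -0.39, Hspa8 from -0.71 to -0.12 and Dnajb1 from -0.70 to -0.06. Exceptions in Mettl3 KO against control were calls gained. DESeq2 called 4 members lower and 2700 genes, and the replicate block called the same 4 members, Hsph1, Hsp90aa1, Hspd1 and Hspe1, and 6002 genes. Leaving out both libraries above 75% of reads outside genes gave 3 members (Hsph1, Hsp90aa1 and Dnajb1) and 8124 genes. The calls over all genes numbered 100 with RLE scaling (72 higher), 122 with library totals (106 higher), 62 with no filter, 81 with a mean of at least 1 CPM, 42 with all 15 libraries in 1 fit and 55 with the covariate, against 266 (87 higher). Leaving out 1 library gave 0 to 3 members and 35 to 11625 genes, the upper end without control replicate 1. In Mettl14 KO against control, genes called numbered 47 with no filter, 505 with DESeq2, 14 with the replicate block, 50 in the 15-library fit, 1054 without control replicate 1 (also the only library of that comparison above 75%) and 0 to 1054 over the libraries left out, against 0, and members 0 throughout. Between the knockouts, DESeq2 called 68 genes and the leave-outs 0 to 1. The cause was not tested.

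Directions reversed for weak values. In Mettl3 KO against control, Hspb1 was 0.0343 without the libraries above 75%, and leaving out 1 library gave -0.35 to 0.14 for Hspa1b (positive without control replicate 3). In Mettl14 KO against control, library totals gave 0.00613 for Hspa8, 0.0217 for Hsph1 and 0.000575 for Hspe1, and Dnajb1 was -0.0644 without the libraries above 75%. Leaving out 1 library there gave -0.31 to 0.0120 for Hspa8 and -0.33 to 0.11 for Hsph1 (positive without control replicate 3), and -0.0644 to 0.20 for Dnajb1 (negative without control replicate 1). Between the knockouts, Hspa1a was -0.17 with no filter, -0.10 with the replicate block and -0.44 with the covariate, and leaving out 1 library gave -0.29 to 0.30 for Hspa1a (negative without Mettl3 KO replicate 4 or Mettl14 KO replicate 1 or 3) and -0.27 to 0.46 for Hspb1 (negative without Mettl3 KO replicate 5).

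Replicate numbers did not pair the samples consistently. Same-numbered deviations correlated from -0.20 to 0.50 in Mettl3 KO against control, and from -0.58 to 0.23 in Mettl14 KO against control. Between the knockouts they correlated from -0.63 to 0.28. In Mettl3 KO against control, replicates 1 and 5 correlated at 0.50 and 0.34, and the replicate block called more genes than the main fit. Pairing by number is therefore not settled for that comparison. Few reads limit Hspa1a, Hspa1b and Hspb1; Hspa1a was tested with 1 to 22 reads a library.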
